A study of Sus scrofa with 8 samples.

Results

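GATA4, GATA5, GATA6, HAND1, HAND2, NKX2-5 and TBX20 were followed as a group of transcription factors of the heart and the lateral mesoderm in single-cell RNA libraries of pig somites and myotome. The 7 genes were chosen by name, as rows of the deposited feature lists, and all 7 were among the 21301 genes of every matrix. They were examined in the 74147 cells that were kept, by stage and in gates, which are classes of cells set by fixed genes.

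The 8 libraries were 1 of each stage and breed. Somites were taken on embryonic days 16, 18 and 21 (E16, E18 and E21) and the myotome on day 28 (E28), from Tibetan pigs (ZZ) and from the Duroc x Tibetan cross (DZ). A library was made from 5 embryos of 1 sow, pooled, and no animal carried a transgene or received a treatment. A stage is therefore known from 2 libraries of different breeds, and the tissue changed together with the stage at E28. The p-values of whole libraries measure the spread between these 8 pools. Those of gates rest only on the pools with enough cells of the gate, mostly as differences within a pool. The files give no embryo of origin for a cell. Beside markers of the somite lineages, those of heart muscle, gut endoderm, endothelium and epithelium were found in the early libraries.

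GATA4, GATA5 and GATA6 encode zinc-finger proteins that bind the GATA motif. HAND1 and HAND2 encode basic helix-loop-helix proteins, which bind E-boxes as partners of other proteins of that class. NKX2-5 encodes a homeodomain protein and TBX20 a T-box protein. In vertebrate embryos the 7 factors are known from the heart-forming mesoderm, where they act together and on each other's genes, and outside the heart GATA4, GATA5, GATA6, HAND1 and HAND2 are also known from the lateral plate, the mesoderm that lies beside the somites and lines the body cavity, and, for the GATA factors, from gut endoderm. The paraxial mesoderm, which forms the somites and the myotome, is not known as a main site of any of them.

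The 7 genes lie on 5 chromosomes of Sscrofa11.1 by the RefSeq annotation. GATA4 (chr14:14858470-14938156, plus strand) and HAND2 (chr14:16460089-16462979, plus) share chromosome 14, HAND1 (chr16:68679977-68683346, plus) and NKX2-5 (chr16:51086014-51089165, plus) share chromosome 16, and GATA5 (chr17:61824891-61834742, minus), GATA6 (chr6:107282709-107314725, plus) and TBX20 (chr18:38635603-38681690, plus) lie elsewhere. The promoter windows of 3 of them are shown because their levels set the patterns described here. GATA6 and HAND1 had the most highly correlated levels over the gates of all libraries, early and late together. NKX2-5 had the lowest correlations among the genes with many counts. A window runs from 250 bases before the annotated gene start to 50 bases after it, 5′ to 3′ on the gene's strand, and capitals mark matches to the E-box (CANNTG), which reads as the same motif on either strand. The windows are chr6:107282459-107282758 for GATA6, chr16:68679727-68680026 for HAND1 and chr16:51085764-51086063 for NKX2-5, all on the plus strand.
GATA6: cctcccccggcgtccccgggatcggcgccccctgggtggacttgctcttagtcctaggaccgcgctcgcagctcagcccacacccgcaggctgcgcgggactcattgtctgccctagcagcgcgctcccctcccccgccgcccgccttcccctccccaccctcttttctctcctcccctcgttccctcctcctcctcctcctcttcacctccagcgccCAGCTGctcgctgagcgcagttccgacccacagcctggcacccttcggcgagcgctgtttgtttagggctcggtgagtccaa
HAND1: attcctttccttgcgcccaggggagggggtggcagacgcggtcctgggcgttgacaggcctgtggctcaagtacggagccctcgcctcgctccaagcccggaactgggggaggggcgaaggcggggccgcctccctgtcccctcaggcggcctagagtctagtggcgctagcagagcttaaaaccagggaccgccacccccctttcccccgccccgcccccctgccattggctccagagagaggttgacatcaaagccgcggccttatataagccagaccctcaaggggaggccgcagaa
NKX2-5: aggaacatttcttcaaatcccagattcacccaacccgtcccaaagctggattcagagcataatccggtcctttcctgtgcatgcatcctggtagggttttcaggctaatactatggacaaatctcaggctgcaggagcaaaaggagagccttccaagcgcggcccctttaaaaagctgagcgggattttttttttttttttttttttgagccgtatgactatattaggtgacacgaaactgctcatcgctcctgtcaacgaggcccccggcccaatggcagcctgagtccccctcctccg

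Among the windows of the 6 genes other than GATA4, whose window is not reported here, 1 E-box each was found in those of GATA5, GATA6 and TBX20, where 67.8% of 19556 promoter windows of this length held at least 1. The letters AGGTGT of the T-box motif, searched on both strands, were found in none of the 6, against 12.1% of all windows. The NKX2-5 window had 49.7% G and C, below the median of 58.7% over all windows, whereas those of GATA5 and HAND2 had 82.7% and 84.3%. These are matches of letters in 1 window per gene, at the first annotated start, and not measured binding sites.

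After limits on genes, UMIs and mitochondrial share and the removal of doublets, a library kept between 39852689 and 57568895 UMIs (unique molecular identifiers, each standing for 1 captured RNA molecule), with a median of 3405 to 6160.5 UMIs per cell. The E16-ZZ library stood apart: 39.2% of its barcodes exceeded the mitochondrial limit, against 1.05% to 9.15% in the other 7. Any 2 libraries had 23 to 49 cell barcodes in common, at most 0.453% of the smaller library. Levels are counts in CPM, the UMIs of a gene per 1000000 UMIs, of the summed cells of a library or gate. They are compared for 1 gene at a time, since capture at the 3′ end differs between genes.

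All 7 genes were present in the early libraries (E16 and E18) and lower in every late one (E21 and E28). The highest late level was 6.80 CPM, of HAND2 in E21-DZ. At E16 GATA4 had 30.1 CPM in the ZZ library and 25.6 CPM in the DZ library, and at E18 it had 15.9 and 14.1 CPM. In the late libraries 16 UMIs of GATA4 were counted, all in E21-DZ (0.348 CPM), and none in the other 3. The groups did not overlap, and the pooled early level of 20.9 CPM was 228 times the pooled late level of 0.0913 CPM (95% counting interval 140 to 400). Without E21-DZ it was at least 899-fold higher, against a floor of 3 counts over the other late libraries.

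GATA5 had 11.5 and 9.72 CPM in E16-ZZ and E16-DZ, 7.33 and 7.51 in E18-ZZ and E18-DZ, 0.772 and 0.697 in E21-ZZ and E21-DZ, and 0.116 and 0.0474 in E28-ZZ and E28-DZ. GATA6, in the same order, had 42.7 and 31.0 CPM, 20.4 and 20.8 CPM, 1.07 and 3.20 CPM, and 0.209 and 0.190 CPM. For both, every E18 library lay below every E16 library and every late library below every early one. The pooled early level was 21.2 times the late one for GATA5 (interval 16.8 to 27.2) and 23.0 times for GATA6 (20.1 to 26.5). E21-DZ held 147 of the 211 late UMIs of GATA6, and without that library its ratio was 56.0 (43.8 to 72.8).

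HAND1, a factor of the lateral plate, the early ventricle and extraembryonic mesoderm, was the gene of this group with the most UMIs, 20887 in the early libraries. Its levels were 124 and 132 CPM in E16-ZZ and E16-DZ, 72.9 and 78.4 in E18-ZZ and E18-DZ and 1.13 and 1.52 in E21-ZZ and E21-DZ, and no UMI in either E28 library. HAND2, a factor of the second heart field, limb and sympathetic neurons, had 53.2 CPM (ZZ) and 46.9 CPM (DZ) on day 16, then 20.9 and 15.6 CPM on day 18, 2.11 and 6.80 CPM on day 21, and 0.186 and 0.261 CPM on day 28. HAND1 was 147 times higher in the early libraries (interval 123 to 177) and HAND2 13.6 times (12.3 to 15.1). E21-DZ held 312 of the 424 late UMIs of HAND2, and without it the ratio was 38.0 for HAND2 (31.6 to 46.3), 260 for HAND1 (197 to 350) and 27.9 for GATA5 (20.5 to 39.0), so that which gene had the smallest ratio turned on that library.

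NKX2-5, known from heart progenitors and cardiomyocytes, had 11.4 CPM (ZZ) and 23.0 CPM (DZ) on day 16 and 7.04 and 4.92 CPM on day 18. It had no UMI in any of the 4 late libraries, so that its pooled early level of 11.8 CPM was at least 686-fold higher, against a floor of 3 counts over those libraries, and at least 435-fold higher without E16-DZ. TBX20, a T-box repressor of the heart, was scarce throughout, with 1.51, 1.83, 0.400 and 0.379 CPM in E16-ZZ, E16-DZ, E18-ZZ and E18-DZ. Late libraries held 2 UMIs of TBX20, 1 in each E28 library, which gave a ratio of 87.7 with a wide counting interval of 24.0 to 729, and of 132 (23.5 to 5251) with E28-ZZ left out.

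**Figure D1:**
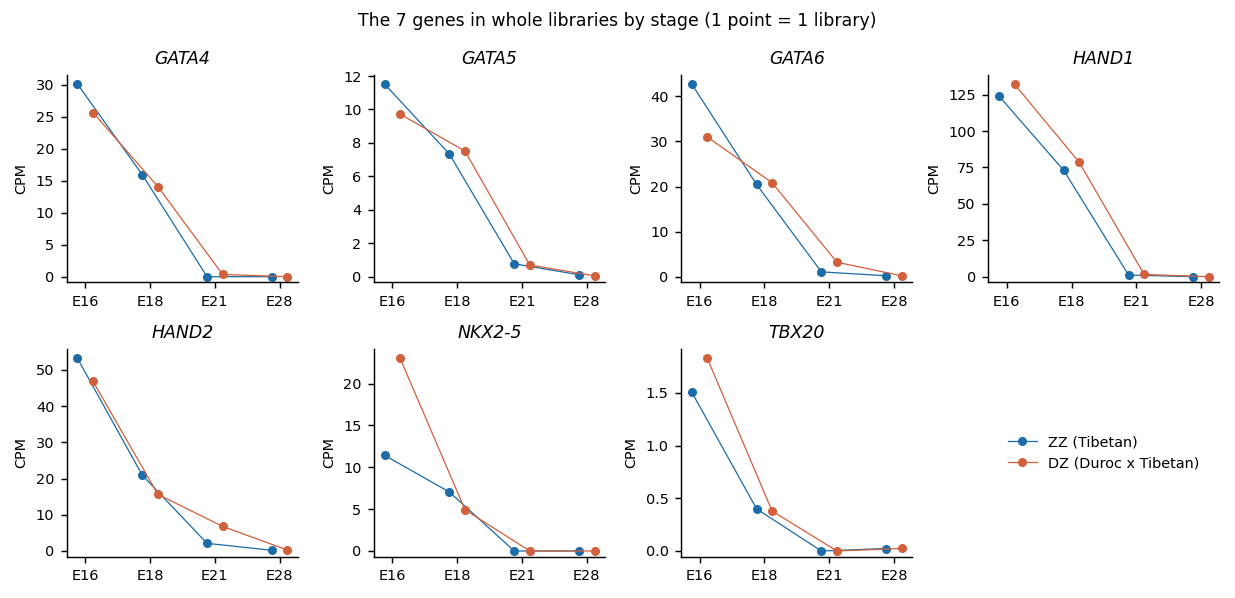
Level of each of the 7 genes in CPM (vertical axis, linear, from 0) in every library, by embryonic stage (horizontal axis, stages evenly spaced, E28 from the myotome), 1 point per library with the points of a breed joined by a line. All 4 E16 and E18 libraries lie above all 4 E21 and E28 libraries for each gene, and HAND2 in E21-DZ is the highest late value at 6.80 CPM.

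In edgeR's quasi-likelihood test of the 4 late against the 4 early libraries, with breed as a covariate, all 7 genes were called lower, where 17.1% of the 14337 genes tested were. The log2 difference was -4.64 (SE 0.78, adjusted p = 0.00503) for GATA5, -4.90 (SE 0.92, adjusted p = 0.00718) for GATA6, -7.44 (SE 1.08, adjusted p = 0.00339) for HAND1 and -4.24 (SE 1.13, adjusted p = 0.0236) for HAND2. The adjusted p was 0.00252 for GATA4, 0.00365 for NKX2-5 and 0.00444 for TBX20, whose fitted differences rest on late libraries at or near 0. HAND2 was the gene nearest the threshold: its adjusted p was 0.0511 without E16-ZZ, 0.0773 without E16-DZ, 0.0526 without E21-ZZ and 0.0511 without both E28 libraries. With the Cell Ranger 3.0.2 libraries alone, which leaves out E16, GATA5, GATA6 and HAND2 had log2 differences of -4.25, -4.41 and -3.36 and were not called.

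Between E16 and E18 each of the 7 genes was lower at E18, with 2.67% of 15119 genes called lower. HAND1 fell by 0.93 on the log2 scale (SE 0.14, adjusted p = 0.0322) and TBX20 fell by 2.25 (SE 0.43, adjusted p = 0.0467), and both calls were lost when any 1 of the E16 or E18 libraries was left out (HAND1 0.116 to 0.309, TBX20 0.221 to 0.404) or with cells limited to 5% mitochondrial UMIs (0.400 and 0.189). Without either E28 library TBX20 was also lost (0.0530 and 0.0557). The other 5 had differences of -0.68 to -1.63 with adjusted p of 0.0888 to 0.261, and of these GATA4, GATA6 and HAND2 were called when an E21 library was left out.

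From E18 to E21 all 7 genes were called lower, where 10.4% of genes were. HAND1 fell by 5.92 (SE 0.18, adjusted p = 2.2e-04), GATA5 fell by 3.43 (SE 0.29, adjusted p = 0.00161), GATA6 fell by 3.38 (SE 0.48, adjusted p = 0.00652) and HAND2 fell by 2.19 (SE 0.50, adjusted p = 0.0258). GATA4, NKX2-5 and TBX20 had adjusted p of 0.00593, 0.00482 and 0.00758, with at most 16 UMIs left at E21. Without E18-ZZ the adjusted p of HAND2 was 0.147 and that of TBX20 0.0604, and without E18-DZ that of HAND2 was 0.0582.

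From E21 to E28, where the tissue changed as well, 4.23% of genes were called lower. Those with UMIs left fell again: GATA5 fell by 3.13 (SE 0.41, adjusted p = 0.0108), GATA6 fell by 3.41 (SE 0.66, adjusted p = 0.0276) and HAND2 fell by 4.30 (SE 0.70, adjusted p = 0.0174). HAND1 went from 120 UMIs at E21 to none (adjusted p = 0.00308). GATA6 and HAND2 were not called without E28-ZZ (0.0837 and 0.0658) or without E28-DZ (0.139 and 0.0897), and GATA5 and GATA6 were not at the stricter mitochondrial limit (0.0698 and 0.0626). Between DZ and ZZ none of the 14337 genes was called, 0 in percent, with 869 at an unadjusted p under 0.05 and 55 called by DESeq2, and the 7 genes had adjusted p of 0.843 to 0.988.

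For each gene the share of cells with at least 1 UMI was higher in every early library than in every late one. To compare cells of unequal depth, 68138 cells were thinned to 2000 UMIs each and 6009 shallower cells were left out. HAND1 was found in 10.9% ± 4.54 (SD, n = 4) of the thinned cells of the early libraries and in 0.0884% ± 0.104 (SD, n = 4) of those of the late ones. The early and late means were 5.27% ± 2.73 and 0.435% ± 0.596 for HAND2, 4.71% ± 1.53 and 0.197% ± 0.233 for GATA6, and 3.38% ± 1.23 and 0.0112% ± 0.0225 for GATA4. Without E21-DZ the late means were 0.145% for HAND2, 0.0907% for GATA6, 0.0504% for HAND1 and 0% for GATA4. GATA5 was at 1.76% ± 0.319 and 0.0657%, NKX2-5 at 1.52% ± 0.945 and 0%, and TBX20 at 0.236% ± 0.184 and 0.00248%. Exact permutation of the libraries between early and late, two-sided with 70 splits, gave p = 0.0286 for each gene, the smallest it can give. Without thinning the early means ran from 0.634% for TBX20 to 17.4% for HAND1.

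Such sums cannot tell fewer cells of a type from less RNA per cell, and the cell makeup changed along with the 7 genes. The summed CPM of 7 epithelial markers, all found in every library, was 1987 to 7047 in the early libraries and 6.73 to 123 in the late ones. Skeletal muscle markers went the other way, from 2.57 to 37.6 up to 182 to 755 CPM, as did neuron markers, from 34.0 to 133.1 up to 433 to 2080 CPM. Some marker lists of other cell types were lower late along with the 7 genes, where 17.1% of all genes were called lower. Of the endothelial markers 6 of 7 were called lower (250.01 to 477 CPM summed early, 101 to 169 late), of the erythroid markers 5 of 5 (90.0 to 152, 26.6 to 57.7), and of those of trophoblast and amnion 4 of 7 (46.6 to 124, 12.7 to 88.8). Of 7 heart muscle markers 3 were called lower and 1 higher, ACTC1, which skeletal muscle also expresses. Their sum was at 279 to 1264 CPM early and 891 to 3304 late, and that of macrophage markers at 0.782 to 4.42 and 1.68 to 44.2. The part of these cell types in the result was not tested. Keratin-rich cells made up 39.4% and 30.9% of the cells of E16-ZZ and E16-DZ, 19.8% and 14.9% of E18-ZZ and E18-DZ, and at most 0.587% of a late library. The gates give the levels within classes of cells.

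A cell entered the first gate it met, in a fixed order. The MYBPC3+ gate took cells with a UMI of MYBPC3, a thick-filament protein of heart muscle, after erythroid, macrophage and endothelial cells were set aside. It held 97, 266, 87 and 41 cells of E16-ZZ, E16-DZ, E18-ZZ and E18-DZ and 24 cells of the late libraries together, which were too few to test. Beside MYBPC3, which sets the gate, its cells had all 6 of the other heart muscle markers that the files name, at 14536 to 35445 summed CPM without MYBPC3, and also epithelial markers at 2781 to 6581 CPM. Against the other cells, 0 of the 7 epithelial markers were called higher and 2 lower, where 7.73% and 7.15% of all genes were. Those other cells included the ones gated on EPCAM or on KRT8 and KRT18, markers of this list, so the counts cannot show an excess over cells without them. As means of the early libraries, KRT18 had 1285 CPM in MYBPC3+ cells and 2860 in keratin-rich cells. In cells of no gate and without a GATA4 UMI it had 80.2 CPM.

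NKX2-5 was the gene most concentrated in MYBPC3+ cells, with 346 and 548 CPM in E16-ZZ and E16-DZ and 278 and 83.2 CPM in E18-ZZ and E18-DZ, every value above those of any other gate with at least 20 cells. In the same order of libraries GATA4 had 61.1, 57.1, 84.4 and 92.2 CPM there, GATA6 84.5, 56.5, 61.1 and 74.3, and HAND2 81.9, 54.1, 113 and 92.2. HAND1 had 200, 176, 61.1 and 89.2 CPM, both E16 libraries above both E18 libraries. GATA5 had 9.10, 8.51, 7.19 and 14.9 CPM. TBX20 was found in 2 of the 4 sums, at 6.69 CPM in E16-DZ and 5.39 in E18-ZZ.

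Against the other cells of the same early libraries, NKX2-5 was 5.87 higher on the log2 scale in MYBPC3+ cells (SE 0.20, adjusted p = 1.94e-17), GATA4 1.78 (SE 0.21, adjusted p = 5.61e-07), HAND2 1.30 (SE 0.26, adjusted p = 6.81e-04) and GATA6 1.27 (SE 0.16, adjusted p = 1.10e-06). HAND1 was 0.39 higher (SE 0.12, adjusted p = 0.0331). These were 5 of the 7 genes, where 7.73% of 12827 genes were called higher. GATA5 (0.02, adjusted p = 0.987) and TBX20 (1.74, adjusted p = 0.115) were not called. The other cells included the keratin-rich ones, which held on average 69.9% of the early UMIs of GATA5 and 82.2% of those of HAND1. As early means, GATA5 had 9.91 CPM in MYBPC3+ cells and 23.1 in keratin-rich cells. In cells of no gate and without a GATA4 UMI it had 3.24 CPM. HAND1 was not called without E16-ZZ (0.389) or E16-DZ (0.167), and lay lower at the stricter mitochondrial limit (-0.39, adjusted p = 0.236), while TBX20 was called without E16-ZZ (2.42, adjusted p = 0.0319) or with the gate at 2 or more MYBPC3 UMIs (2.72, adjusted p = 0.00262). By DESeq2 HAND1 (0.172) and HAND2 (0.0645) were not called, and GATA6 was not at the stricter limit (0.0547).

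The keratin-rich gate took cells with at least 2 UMIs each of KRT8 and KRT18, the keratin pair of simple epithelia, and none of EPCAM, an adhesion protein of epithelia, after the gates for muscle, neural and sclerotome cells. Of these, the neural progenitor gate, which asked for 2 or more of PAX6, SOX1, SOX2 and SOX3, held only 11 cells. The files name only PAX6 and SOX3, so most neural progenitors were not set aside by it. The keratin-rich gate held 2144, 2942, 1841 and 1399 cells of E16-ZZ, E16-DZ, E18-ZZ and E18-DZ, 57 and 54 cells of E21-ZZ and E21-DZ, and 9 and 2 cells at E28, which were not tested. The summed heart muscle markers were at 116 to 235 CPM in its early sums. The 4 markers of mesothelium and coelomic lining that the files name came to 33.1 to 146 CPM at E16 and E18 and to 454 and 238 CPM in E21-ZZ and E21-DZ, where TCF21 was at 0.

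HAND1 was highest here: 260 and 309 CPM in E16-ZZ and E16-DZ and 270 and 379 CPM in E18-ZZ and E18-DZ, all above the highest value of MYBPC3+ cells. In the same order GATA6 had 81.5, 65.2, 59.8 and 72.6 CPM, GATA5 23.1, 22.2, 21.0 and 26.1, and GATA4 51.8, 48.5, 31.9 and 38.2. HAND2 had 98.9, 103, 57.0 and 51.6 CPM, with both E16 libraries above both E18 libraries. NKX2-5 was at 5.33, 9.25, 9.10 and 10.5 CPM, and TBX20 at 3.32, 4.20, 0.752 and 1.04.

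Keratin-rich cells differed from the other cells of the same 6 libraries in 5 of the 7 genes, all higher, where 8.76% of 12855 genes were called higher. The log2 difference was 3.96 (SE 0.43, adjusted p = 2.67e-04) for HAND1, 2.98 (SE 0.32, adjusted p = 2.64e-04) for GATA5, 2.73 (SE 0.23, adjusted p = 6.57e-05) for GATA6, 2.40 (SE 0.17, adjusted p = 3.12e-05) for HAND2 and 1.81 (SE 0.13, adjusted p = 5.50e-05) for GATA4. NKX2-5 differed by -0.28 (SE 0.53, adjusted p = 0.804) and had a positive value without either E16 library, and TBX20 had too few UMIs to be tested. The 5 calls held when each library was left out in turn.

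The GATA4+ gate took cells with a GATA4 UMI that had entered no other gate, between 56 (E16-ZZ) and 154 (E18-DZ) cells of an early library and 1 cell in the late libraries. GATA4 sets this gate and was not tested in it. GATA6 had 76.4, 76.7, 79.0 and 95.2 CPM there and HAND2 108, 94.5, 81.5 and 71.7. HAND1 had 42.5, 137, 45.7 and 43.0 CPM, so that E16-DZ lay apart from the other 3. GATA5 had 2.83, 27.8, 28.4 and 35.2 CPM, with E16-ZZ, the library with the fewest cells, apart. NKX2-5 had 11.3, 11.12, 23.5 and 27.4 CPM.

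Against ungated cells without a GATA4 UMI, the GATA4+ cells had more GATA6 (log2 difference 3.29, SE 0.17, adjusted p = 1.59e-08), GATA5 (2.93, SE 0.34, adjusted p = 3.42e-05), HAND2 (2.85, SE 0.18, adjusted p = 6.26e-08), HAND1 (2.14, SE 0.17, adjusted p = 8.01e-07) and NKX2-5 (1.88, SE 0.40, adjusted p = 0.00638), where 6.37% of 10166 genes were called higher. TBX20 had too few UMIs to be tested. NKX2-5 was not called without E18-ZZ (0.0773), without E18-DZ (0.0675) or at the stricter mitochondrial limit (0.400). Of the ungated early cells 505 had a UMI of GATA4 and 12042 had none. Among them 1745 had a UMI of PAX6, and 24 of these (1.38%) had one of GATA4. The part of stray UMIs, from RNA free in the suspension, in the GATA4+ gate was not tested. Cells picked for a UMI are deeper: the median was 4133.5 to 5640 UMIs in GATA4+ cells and 3448 to 4444 in those without. With every cell thinned to 2000 UMIs before the gate and the sums, the 5 genes were again called, at 2.84 for GATA6, 2.13 for GATA5, 2.30 for HAND2, 1.67 for HAND1 and 2.12 for NKX2-5. All gates were set on the thinned counts there, so cells could change gate and the 2 sides did not hold the same cells as before.

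**Figure D2:**
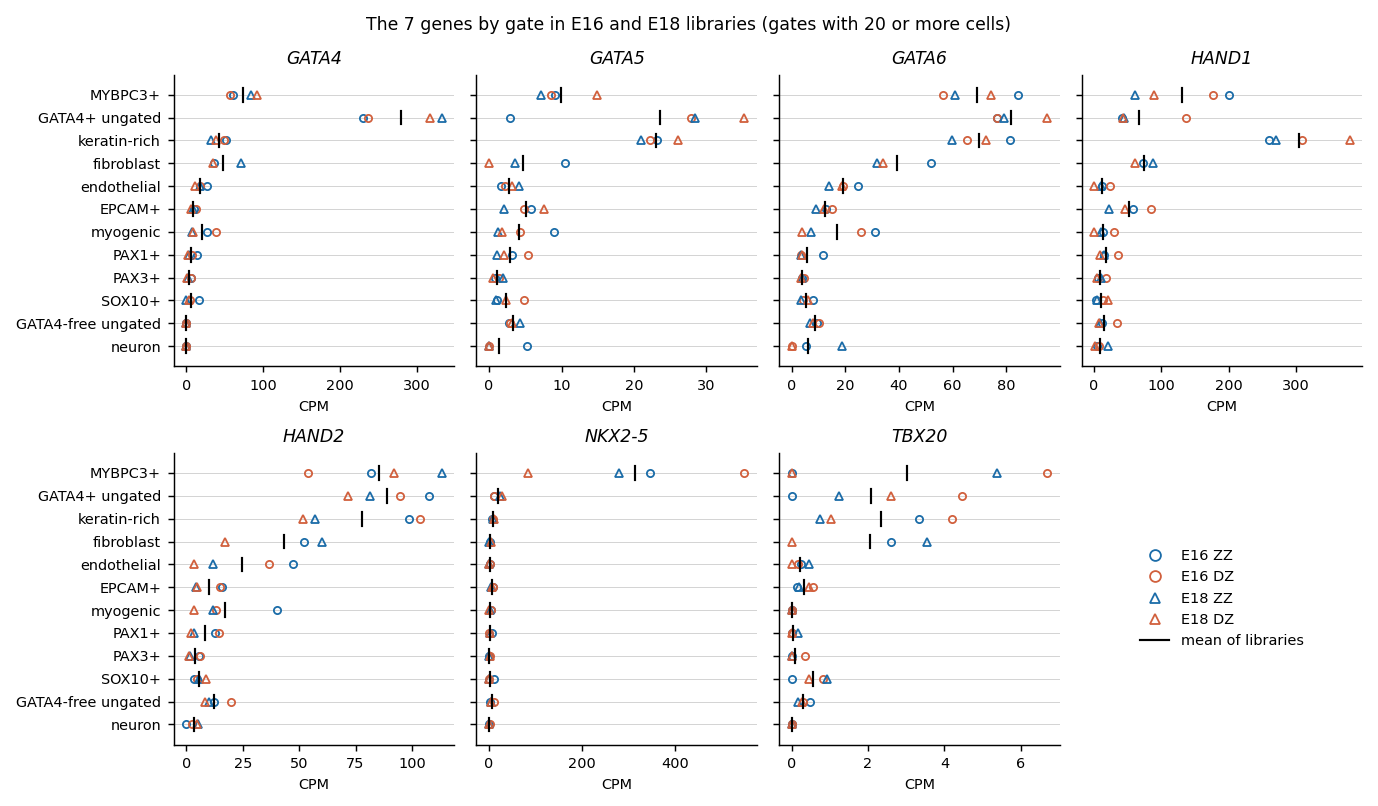
Level of each gene in CPM (horizontal axis, linear) by gate (vertical axis) in the E16 and E18 libraries, 1 symbol per library with at least 20 cells and a bar at the mean. Erythroid and chondrogenic cells are not drawn. NKX2-5 stands out in MYBPC3+ cells (83.2 to 548 CPM) and HAND1 in keratin-rich cells (260 to 379 CPM), and GATA4 in GATA4+ cells is set by the gate.

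The gates were also compared with each other, a choice made after seeing the data. In the 4 early libraries, MYBPC3+ cells had more NKX2-5 than keratin-rich cells (log2 difference 5.25, SE 0.34) and more GATA4 (0.74, SE 0.19, adjusted p = 0.0165), and less GATA5 (-1.25, SE 0.24, adjusted p = 0.00220) and HAND1 (-1.13, SE 0.23, adjusted p = 0.00347), where 13.1% of 11010 genes were called in either direction. GATA6 (0.00, SE 0.12), HAND2 (0.06, SE 0.24) and TBX20 (0.50) were not called. The GATA4 call was lost without E18-ZZ (0.53, adjusted p = 0.126) and at the stricter mitochondrial limit (0.77, adjusted p = 0.0836). GATA4+ cells had less HAND1 than keratin-rich cells (-2.25, SE 0.21, adjusted p = 3.04e-06) and more NKX2-5 (0.99, SE 0.26, adjusted p = 0.0377), where 3.64% of 10836 genes were called. That NKX2-5 call was lost without E16-ZZ (0.0951), E18-ZZ (0.338) or E18-DZ (0.243) and by DESeq2 (0.0986), and GATA5, GATA6 and HAND2 differed by 0.10 (SE 0.25), 0.19 (SE 0.13) and 0.16 (SE 0.13) and were not called.

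**Figure D3:**
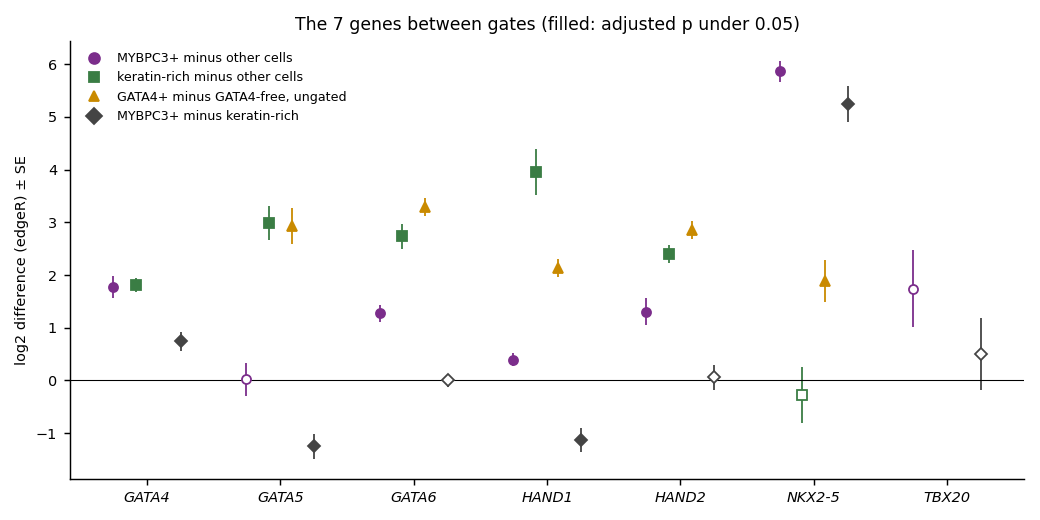
Log2 difference from edgeR (vertical axis) with its standard error for each gene (horizontal axis) in 4 comparisons of gates, filled where the adjusted p was under 0.05. NKX2-5 is highest in MYBPC3+ cells in both comparisons that include them (5.87 and 5.25), while HAND1 is 3.96 higher in keratin-rich cells than in other cells.

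Ordered by level over the early libraries, GATA5 did not separate GATA4+ from keratin-rich cells by range, but keratin-rich cells (at least 21.0 CPM) lay above MYBPC3+ cells (at most 14.9). GATA6 did not separate GATA4+, keratin-rich and MYBPC3+ cells from each other, and all 3 lay above fibroblasts, cells gated on LUM, DCN and OGN (56.5 against at most 52.1 CPM). The ranges of HAND2 and TBX20 overlapped among the leading gates. For GATA4, MYBPC3+ cells (at least 57.1 CPM) lay above keratin-rich cells (at most 51.8), and the range of fibroblasts, 139 cells of 3 libraries, overlapped both (34.2 to 70.9). HAND1 in keratin-rich cells (at least 260 CPM) lay above MYBPC3+ cells (at most 200), and NKX2-5 in MYBPC3+ cells (at least 83.2 CPM) lay above GATA4+ cells (at most 27.4), which lay above keratin-rich cells (11.12 against at most 10.5).

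Keratin-rich cells were 26.3% ± 11.07 (SD, n = 4) of early cells and MYBPC3+ cells 1.49%. On average over the libraries, most UMIs of 6 of the genes came from keratin-rich cells. As means of the 4 early libraries, keratin-rich cells held 82.2% of the UMIs of HAND1, 69.9% of GATA5, 68.0% of GATA6, 66.3% of HAND2, 63.1% of TBX20 and 55.6% of GATA4. For NKX2-5 the share was 24.9% ± 11.8 (SD, n = 4), and MYBPC3+ cells held 43.9% ± 25.4 of its UMIs, against means of 1.56% to 5.88% of those of the other 6. The libraries differed: MYBPC3+ cells held 58.5% and 68.2% of the UMIs of NKX2-5 in E16-ZZ and E16-DZ and 38.3% in E18-ZZ, but 10.8% in E18-DZ, where keratin-rich cells held 38.8%. GATA4+ cells held 20.8% of the UMIs of GATA4, by construction of the gate.

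**Figure D4:**
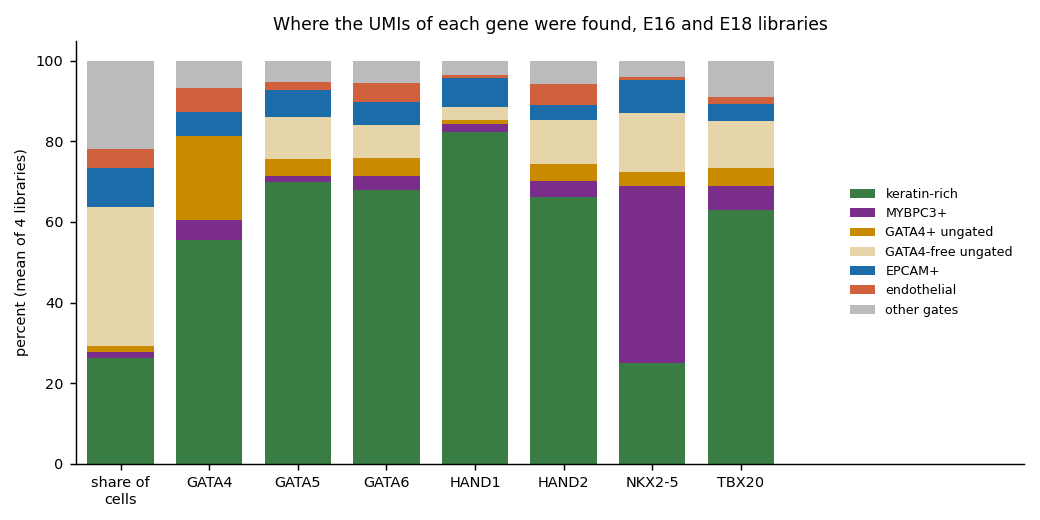
Percent of all cells (first bar) and of the UMIs of each gene (other bars) that fell in each gate, as the mean of the 4 E16 and E18 libraries, with smaller gates summed as other gates. Keratin-rich cells hold mean shares of 55.6% to 82.2% of the UMIs of every gene but NKX2-5. The mean share of NKX2-5 in MYBPC3+ cells is 43.9%, from 10.8% in E18-DZ to 68.2% in E16-DZ.

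Free RNA in the suspension gives stray UMIs, and neural cells were taken as a guide to that level, though not for HAND2, since sympathetic neurons are a known site of it. Among 302 thinned neurons of the early libraries, GATA4 was found in 0, which allows a share of up to 0.993%, and GATA5, GATA6, HAND1 and NKX2-5 in 1 cell each (0.331%). Among 1612 thinned ungated cells with a UMI of PAX6, a neural progenitor factor, GATA4 was found in 0.434%, HAND1 in 0.993% and NKX2-5 in 0.0620%, pooled over the early libraries. By library the shares ran from 0% to 0.879% for GATA4, 0.351% to 3.32% for HAND1 and 0% to 0.535% for NKX2-5. Against these, NKX2-5 was found in 36.5% ± 19.6 (SD, n = 4) of the thinned MYBPC3+ cells of an early library, from 13.5% to 55.9%, and HAND1 in 31.4% ± 3.56 of the thinned keratin-rich cells, from 26.7% to 35.2%. TBX20 was found in 0.493% ± 0.432 of keratin-rich cells, from 0.0585% to 1.01%, and in 0 of the 1612, which allows up to 0.186%, so that its lowest library was not above this limit. The median depth before thinning was 3643 to 5157 UMIs in neurons, 4106 to 5394 in PAX6 cells, 5855 to 7301 in MYBPC3+ cells and 5298.5 to 6785 in keratin-rich cells, and the limits from a count of 0 cover counting error only.

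At the same thinned depth some pairs of the genes were found in the same cells above their share of all cells, and others were near it. HAND1 was in 35.7% ± 5.79 (SD, n = 4) of cells with GATA5, 34.7% ± 5.78 of cells with GATA6 and 33.7% ± 5.39 of cells with HAND2, against 10.9% of all early cells. HAND2 was in 19.8% ± 2.65 of cells with GATA4 against 5.27% of all, and GATA6 in 16.5% ± 2.65 of cells with GATA4 against 4.71% of all. GATA4 was in 14.1% ± 3.87 of cells with NKX2-5, against 3.38% of all. For HAND1 in cells with GATA4 the libraries differed: it was in 10.9% of them against 15.1% of all cells in E16-ZZ, 18.4% against 14.6% in E16-DZ, 12.4% against 7.11% in E18-ZZ and 12.7% against 6.81% in E18-DZ. NKX2-5 was in 2.03% ± 1.42 of cells with GATA5 and 2.05% ± 0.823 of cells with HAND1, against 1.52% of all, and TBX20 in 0.218% ± 0.437 of cells with NKX2-5, against 0.236% of all. At this depth 71.1% and 72.8% of the cells of E16-ZZ and E16-DZ and 85.5% and 87.4% of those of E18-ZZ and E18-DZ held none of the 7 genes. Most of the other cells held 1 gene (20.8%, 19.4%, 10.9% and 8.46% of all cells, in the same order), and the most found in 1 cell was 5.

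The keratin-rich cells of E21 were few, but they carried some of the genes at levels far above their libraries. GATA5 had 32.9 CPM in E21-ZZ and 12.4 in E21-DZ, on both sides of the 21.0 to 26.1 of the early libraries, a ratio of early to E21 of 1.05 (interval 0.646 to 1.85). GATA6 had 26.9 and 39.7 CPM, HAND1 53.8 and 39.7 and HAND2 17.9 and 7.44, all below the early values. GATA4 and NKX2-5 had no UMI, which put the early level of GATA4 at least 10.8-fold higher and that of NKX2-5 at least 2.05-fold higher.

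Keratin-rich cells of E21 were compared with those of E16 and E18, a choice also made after seeing the data. HAND1 alone was called lower at E21 (log2 difference -2.81, SE 0.25, adjusted p = 0.00634), where 0.105% of 12343 genes were called lower. The ratio of early to E21 was 6.46 (interval 4.62 to 9.33) for HAND1, 6.76 (3.56 to 14.8) for HAND2 (adjusted p = 0.137) and 2.06 (1.39 to 3.19) for GATA6 (adjusted p = 0.217), and GATA4 had an adjusted p of 0.0583. The markers of the gate differed as well. Epithelial markers, among them KRT8 and KRT18, which set the gate, summed to 7887 to 11529 CPM in the early libraries and to 5230 and 4306 CPM in E21-ZZ and E21-DZ. Those of mesothelium and coelomic lining were higher at E21, as given above. The part of these markers in the result was not tested. HAND1 was not called without E21-ZZ (0.433) or E21-DZ (0.621), where the lone E21 library is assumed to vary like the early ones. GATA4 was called without any 1 of the early libraries (0.0111 to 0.0241) and HAND2 without E18-ZZ (0.0330) or E18-DZ (0.0268), and DESeq2 called both (0.00162 and 0.00194).

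**Figure D5:**
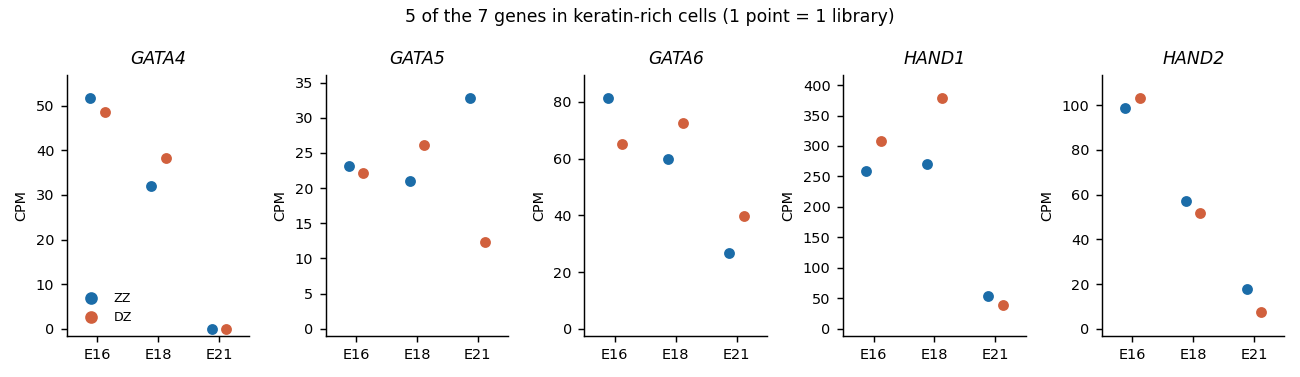
Level in CPM (vertical axis, linear, from 0) of 5 of the 7 genes in keratin-rich cells by stage (horizontal axis), 1 point per library. The E21 points rest on 57 and 54 cells, where GATA4 is at 0, HAND1 at 53.8 and 39.7 CPM, and GATA5 at 32.9 and 12.4 CPM around its earlier values.

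Levels after E18 were also lower within other gates, given as means over libraries without a test. GATA4 went from 18.2 CPM in endothelial cells and 9.17 in EPCAM+ cells of the early libraries to no UMI in either gate of the late ones, which held 265 and 146 such cells. In fibroblasts, 139 early cells of 3 libraries against 9097 late cells, GATA4 was at 47.2 CPM early, GATA6 at 39.4, HAND1 at 74.4 and HAND2 at 43.2. Late fibroblasts had the highest levels in E21-DZ, where GATA4 was at 1.27 CPM, GATA6 at 5.20, HAND1 at 1.97 and HAND2 at 9.14. In E21-ZZ GATA6 was at 1.07 CPM, HAND1 at 0.7997 and HAND2 at 8.53 with no UMI of GATA4, and at E28 none of the 4 genes exceeded 0.709 CPM. In myogenic cells GATA4 was at 20.4 CPM early and 0.0472 late, and GATA6 at 17.1 and 0.163. HAND2 in neurons was at 3.17 CPM early and 2.45 CPM late, with 1 early and 2 late libraries at 0 and a late range up to 8.50 CPM. Ungated cells with PAX6, the guide to stray UMIs, were lower late as well: GATA4 was at 3.005 CPM in them early, GATA6 at 1.69 and HAND1 at 5.60, and none of the 3 had a UMI in the 484 such cells of 2 late libraries. HAND2 was at 0.910 and 0.718 CPM there, from 11 and 1 UMIs. The part of stray UMIs in the changes within gates was not tested.

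Of the 424 late UMIs of HAND2, 197 were in ungated cells without GATA4, 108 in fibroblasts, 43 in neurons, 20 in myogenic cells and 17 in SOX10+ cells of the neural crest lineage. Of the 211 late UMIs of GATA6, 96 were in ungated cells, 46 in fibroblasts and 27 in keratin-rich cells. HAND1 had 56 of its 120 late UMIs in ungated and 34 in keratin-rich cells, and GATA4 had 9 of its 16 in fibroblasts.

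Genes that work with the 7 factors were followed as lists, with higher and lower used of genes called in the edgeR fits above. Of all genes tested, 17.1% were called higher and 17.1% lower in the late libraries. The shares higher and lower were 7.73% and 7.15% in MYBPC3+ cells, 8.76% and 9.35% in keratin-rich cells, and 6.37% and 3.63% in GATA4+ cells. The list of cofactors and other heart transcription factors named 14 genes, of which 12 were tested in whole libraries. In the late libraries 2 were called higher, TBX2 (log2 difference 1.38) and MEF2C (1.16), and 2 lower, ZFPM1 (-1.46), which encodes a partner of GATA factors, and MYOCD (-1.33), with a median of -0.29 against 0.03 over all genes, and both counts were near the share of all genes. In MYBPC3+ cells 7 of 12 were called higher and none lower (median 0.84 against -0.09), led by MYOCD (4.93), TBX5 (2.96) and MEF2C (2.46). In keratin-rich cells 6 of 12 were higher and 1 lower (median 0.92 against -0.01), with ZFPM2 (1.76) and TBX5 (1.46) higher and MEF2C lower (-1.73). In GATA4+ cells 7 of the 9 tested were higher and none lower (median 2.03 against -0.02), with ZFPM2, the main GATA4 partner of its family, at 3.19, TBX2 at 2.93 and ISL1 at 2.62.

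Contractile and secreted heart genes, many of them targets of these factors, differed between the gates. Leaving aside MYBPC3, which sets the gate, all 10 tested were higher in MYBPC3+ cells, by 3.51 (TNNI3) to 7.94 (MYH7), among them MYL4 (7.88) and MYL2 (7.86). None of 10 was higher in keratin-rich cells and 8 were lower (median -2.12), among them MYL2 (-4.19) and CSRP3 (-3.07). Muscle cells had been placed in other gates. None of 6 was called in GATA4+ cells. In whole libraries 4 were lower in the late ones, led by NPPB (-10.29), and 2 higher, ACTC1 (2.12) and MYL2 (2.08), both also expressed by skeletal muscle, with a median of -0.90. MYBPC3 (-5.48) and MYH7 (-3.06) were among the 4. The deposited symbol of the latter is MYH7, whereas the table of gene names gives its identifier as MYH6, its neighbour in the genome.

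Genes of the lateral plate and coelomic lining were higher in keratin-rich cells in 5 of 8 tested and lower in none (median 1.87), namely PITX1 (3.35), BNC1 (2.69), TBX4 (2.45), FOXF1 (2.07) and PRRX1 (1.68). In GATA4+ cells 3 of 6 were higher, FOXF1 (2.75), BNC1 (1.75) and PITX1 (1.62), and none lower (median 0.94). In MYBPC3+ cells none of 8 was higher and 3 were lower, PITX1 (-1.19), ALDH1A2 (-1.14) and WT1 (-1.03), with a median of -0.64. The late libraries had TBX4 lower (-5.15) and PRRX1 higher (1.23) of 8 tested (median -1.48), neither count above the 17.1% of all genes.

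BMP signals induce several of the 7 factors in mesoderm. BMP ligands and responders were higher in keratin-rich cells in 7 of 10 tested (median 0.87), with BMP4 at 1.54, SMAD7 at 1.27 and BMP5 at 1.01 and none lower. They were higher in GATA4+ cells in 6 of 9 (median 0.93), led by BMP5 (2.71), SMAD7 (2.11) and SMAD6 (2.11), with BMP7 lower (-1.13). In MYBPC3+ cells 5 of 11 were higher, led by BMP5 (2.40) and BMP2 (1.85), and MSX1 was lower (-0.80), with a median of 0.43. In whole libraries 2 of 11 were lower in the late ones, MSX1 (-1.76) and SMAD6 (-0.99), near the 17.1% of all genes, and none higher (median -0.31).

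Endoderm genes, which share GATA4 and GATA6 as regulators, were lower in the late libraries in 5 of 10 tested, with AFP (-11.33), CDX2 (-9.74) and TTR (-9.48) as the largest, and higher in none (median -3.31). They were lower in 6 of 8 in keratin-rich cells (median -1.75), 3 of 9 in MYBPC3+ cells (median -0.36) and 1 of 4 in GATA4+ cells, FOXA2 (-2.36), and higher in none of the 3 gates. Cells with an EPCAM UMI had been gated before the keratin-rich cells and were among the cells these were compared with. The part of this order in the result was not tested. Of the other GATA factors and sympathetic neuron genes, GATA3 (-3.02), GATA2 (-2.51) and GATA1 (-1.96) were lower in the late libraries among 6 tested, and none was higher (median -2.23). GATA2 was 1.94 higher in GATA4+ cells, 1 of 2 tested. GATA3 (-0.79) was lower in MYBPC3+ cells, and GATA1, which marks erythroid cells already gated apart, was lower in both MYBPC3+ and keratin-rich cells.

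Over 102 sums of a gate in a library, GATA6 and HAND1 (Pearson r = 0.91), GATA6 and HAND2 (0.90), HAND1 and HAND2 (0.88) and GATA4 and GATA6 (0.85) had the most similar profiles among the 7. NKX2-5 correlated with the other 6 at 0.56 to 0.75. The sums share libraries and depth, so the coefficients describe these libraries. They join early and late sums, and the part of the fall that the 7 genes share was not tested. In GATA4+, keratin-rich and MYBPC3+ cells the early means of GATA6 were 81.8, 69.8 and 69.1 CPM. Those of HAND2 were 88.8, 77.7 and 85.3 CPM, and those of HAND1 67.0, 304 and 132 CPM. GATA4 itself sets 2 of the gates, and over the 90 sums of the other gates it correlated with GATA6 at 0.86, CPZ at 0.78, WNT2 at 0.74 and REXO2 at 0.73. Over those 90 sums CPZ, ATP5F1C (0.76) and LDHA (0.75) were the genes outside the group most like GATA4. Over all 102 sums and outside the group, the genes most like GATA4 were CPZ (0.77), WNT2 (0.76) and REXO2 (0.76). Those most like GATA5 were KCNE1 (0.80), ENSSSCG00000013078 (0.78), which has no symbol in the files, and WNT2 (0.78). Those most like GATA6 were ENSSSCG00000013078 (0.87), CPZ (0.85) and KCNE1 (0.84). For HAND1 they were CPZ (0.87), PKP2 (0.87), a desmosomal protein, and KRT18 (0.84), which sets the keratin-rich gate, and for HAND2 ENSSSCG00000013078 (0.82), CPZ (0.81) and PKP2 (0.80). For NKX2-5 they included NPPB (0.86), the gene of a natriuretic hormone of the heart, and MYH7 (0.75), and for TBX20 REXO2 (0.66), WNT2 (0.65) and KCNE1 (0.56).

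WNT2, a WNT ligand, had 42.2 CPM ± 11.5 (SD, n = 4) in MYBPC3+ cells, 30.1 ± 7.54 in keratin-rich cells and 41.2 ± 19.4 in GATA4+ cells, against 4.00 ± 1.96 in ungated cells without GATA4. CPZ, a carboxypeptidase, had 10.3 ± 3.02, 39.1 ± 13.6, 28.5 ± 6.29 and 8.74 ± 2.45 CPM in the same gates. NPPB had 775 ± 699 CPM in MYBPC3+ cells, from 139.7 to 1580, and at most 32.6 CPM in any of the sums of the other 3 gates.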

How the data were processed

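The values deposited by the authors for the 8 samples are UMI counts, whole numbers per gene and barcode, without normalization. They prepared 10x Chromium 3′ v3 libraries and counted them with Cell Ranger against Sscrofa11.1 with Ensembl annotation. The matrix headers give version 3.1.0 for E16 and 3.0.2 for the other libraries, so the version is tied to E16. Kept were the 82394 of 90688 barcodes with at least 200 genes, at most 30000 UMIs and at most 10% of UMIs from mitochondrial genes. Scrublet in scanpy 1.11.5 marked only 325 doublets by its automatic threshold and so did not work at that setting. The 8247 barcodes with the highest scores, at 0.8% per 1000 barcodes, were removed instead.

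UMIs were summed per library, or per gate and library with at least 20 cells, and tested with edgeR 4.0.16 (R 4.3.3, quasi-likelihood, TMM, default low-count filter, Benjamini-Hochberg over all genes, threshold 0.05). Whole libraries were fitted with breed, the comparison of breeds with stage, and gates with the library as a block. Alternatives were DESeq2 1.42.0, other filters, limits and libraries left out. Ratios of pooled counts with a library left out, and the profile of GATA4 over gates it does not set, were added after seeing the data. So were the tests of gates against each other and of keratin-rich cells of E21 against earlier ones. The script was tested on simulated data. In all tests the library was the replicate. Intervals of ratios and limits from a count of 0 rest on UMIs or cells pooled over libraries and leave out the spread between libraries.

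Named were the 7 genes, up to 4 called genes of a list with the largest differences per comparison, with a few further ones picked after their values were seen, and the 3 most similar genes over 102 sums by log2(CPM + 1). The genes and lists were chosen with earlier results of these data known. Of 6455 identifiers without a symbol, 680 were named from a table of gene names. Promoter windows are RefSeq Sscrofa11.1. A few genes that the rules would name, and 1 promoter window, are not reported here. Genes of the lists that the files do not name, such as MYH6, MYL7 and NPPA, were not analysed here.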

Additional observations from a re-analysis of the deposited data

Results flagged for a closer look

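In 33 groups of 4 libraries, 3 values lay further from the other libraries than the 95% critical value of Dixon's ratio allows, and chance sets apart about 1 in 20 groups. GATA4 was at 0.348 CPM in E21-DZ against 0 in the other 3 late libraries, from 16 UMIs of which 9 were in fibroblasts. With those 3 at 0 the ratio is 1 for any value above 0, so this flag says nothing of the size of the value. GATA6 in GATA4+ ungated cells was at 95.2 CPM in E18-DZ against 76.4 to 79.0 in the other early libraries. HAND1 in GATA4+ ungated cells was at 137 CPM in E16-DZ against 42.5 to 45.7, and E16-DZ also had the highest HAND1 level in whole libraries, at 132 CPM against 124 in E16-ZZ.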

How the results depend on the processing

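In whole libraries all 7 genes were lower late than early under every setting tried, and 7 were called in the main fit, with 6 or 7 when a library was left out. With Cell Ranger 3.0.2 libraries alone 4 were called, with 1338 genes in all against 4912, and without the E28 libraries 2552 genes were called. Leaving out a library gave 2977 to 4595 genes. For E18 against E16 (2 of the 7 and 711 genes called), leaving out a library gave 0 to 5 and 17 to 989. The 5% mitochondrial limit gave 0 and 52 there, and DESeq2 2114 genes. For E21 against E18 (7 and 3198) it was 5 to 7 and 373 to 3464. For E28 against E21 (4 and 1290) it was 2 to 5 and 327 to 982, with 2 of the 7 at the 5% limit and 2290 genes by DESeq2. Between breeds DESeq2 called 55 genes, and 1 gene was called with no low-count filter and 1 with no doublets removed.

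In MYBPC3+ cells (5 of the 7 and 1908 genes) DESeq2 called 3 of the 7 and the 5% limit 3, with 494 genes, and leaving out a library gave 4 to 5 and 1230 to 2019. GATA5 was -0.14 with no doublets removed, -0.53 at the 5% limit, -0.85 with at least 2 MYBPC3 UMIs and -0.13 to 0.15 with a library left out, and HAND1 was -0.39 at the 5% limit. In keratin-rich cells (5 and 2328) leaving out a library gave 5 to 6 and 1513 to 2486, and NKX2-5 was 1.12 by DESeq2 and -0.86 to 0.24 with a library left out. In GATA4+ cells (5 and 1017) it gave 4 to 5 and 620 to 918, and 1551 genes were called with no low-count filter.

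Between MYBPC3+ and keratin-rich cells (4 and 1446) the 5% limit gave 478 genes and leaving out a library 3 to 4 and 879 to 1712. GATA6 was -0.0015 with DESeq2 size factors, -0.078 with no low-count filter, -0.45 at the 5% limit and -0.053 to 0.036 with a library left out, and HAND2 was -0.018 with no low-count filter and -0.26 to 0.46 with a library left out. Between GATA4+ and keratin-rich cells (2 and 394) 1 of the 7 was called by DESeq2 (228 genes), 1 with no doublets removed, 1 at the 5% limit (251 genes) and 1 with at least 1000 UMIs per cell, 787 genes with no low-count filter, and 1 to 2 and 195 to 600 without a library. GATA5 was -0.0040 by DESeq2 and -0.016 to 0.32 with a library left out, and TBX20 was -0.23 to 0.41. For keratin-rich cells of E21 (1 and 33) DESeq2 called 3 of the 7 and 272 genes, no low-count filter 3 and 225, and leaving out a library 0 to 3 and 0 to 139, with GATA5 at -0.96 to 0.32.

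The permutation of shares called 7 genes with all libraries and 0 with the Cell Ranger 3.0.2 libraries, 0 without E28 and 0 without any 1 library, since the smallest p is then above 0.05. The cause of the other changes was not tested. Of 834 alternative values of single genes in the tests across genes, 745 kept direction and side of the threshold. A comparison of GATA4+ cells late against early was not run, since late libraries held 1 such cell. No pairing by animal was possible because, between stages and breeds, each group has 1 library and its number 1 names no shared animal. Breeds were compared with stage in the model, and gates within libraries, with the library as a block. The fit with no breed term called the 7 genes of the late libraries as well. Depth limits TBX20 most, with 208 early UMIs.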
